A study of Homo sapiens with 6 samples.

Results

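The transcriptome described here is that of MDA-MB-231 cells kept for 72 h in the vehicle DMSO, across all genes counted. It was read in 3 libraries, chosen by their treatment label and lettered DMSO a, b and c, of the 6 libraries in the series. The other 3 libraries, from cells given the RAGE inhibitor Azeliragon, enter no value below. All libraries were made from polyadenylated RNA of this single line, grown in DMEM-F12 with fetal serum and glutamine. The labels give no amount of DMSO and do not say whether the libraries came from separate cultures, so the spread between them may be technical.

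MDA-MB-231 is a human breast cancer line established from a metastatic pleural effusion. It is a standard model of triple-negative disease, the breast cancers that lack oestrogen receptor, progesterone receptor and amplified HER2. The line is known for a spindle shape, high CD44 and vimentin, invasion through matrix, an activating mutation of BRAF and deletion of CDKN2A. In breast epithelium, luminal cells make simple keratins and hormone receptors, while basal cells make stratified keratins and contractile proteins. In an epithelial to mesenchymal transition (EMT), cells give up E-cadherin junctions and turn on vimentin, matrix and integrin genes under factors of the SNAIL, ZEB and TWIST families.

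The deposited counts summed to 44191944, 43091452 and 44313584 in DMSO a, b and c. Levels are CPM, counts per 1000000 counts of the library after TMM scaling, given as mean ± SD over n = 3 libraries. Where genes are compared with each other, the level is divided by the kilobases of all exons of the gene (CPM per kb). A gene was called detected at 1 CPM or more in each library, which is 43.2 to 45.2 reads. For a gene with 0 reads in all 3 libraries, 3 counts of the 131596980 summed counts, or 0.0228 CPM, is the level that such a count still allows. These limits cover counting error only.

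DMSO a stood apart from the other two. The median SD over the mean, across 9828 protein-coding genes at a mean of 5 CPM or more, was 8.21% over the 3 libraries and 4.597% over DMSO b and c alone. An SD over fewer libraries tends to read lower, so these medians are not directly comparable. Long genes read higher in DMSO a and short genes lower. The median log2 ratio of DMSO a to the mean of b and c ran from -0.19 in the quintile of genes with the fewest exon bases to 0.19 in the quintile with the most. The same medians for DMSO b over c were -0.09 and 0.05. Levels in each library are therefore given for many genes, and the mean without DMSO a for some of them.

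Of 19934 protein-coding genes, 11356 (57.0%) were detected. Another 4576 (23.0%) had 0 reads in all 3 libraries, and 4002 (20.1%) lay between these calls. The detected genes had a median of 28.8 CPM with quartiles at 10.2 and 75.1 CPM. The median over all protein-coding genes was 4.55 CPM. Few genes held much of the RNA, since 106 genes at 1000 CPM and above held 23.8% of all counts. The 100 most abundant genes held 22.4%, 23.7% and 24.1% of the counts in DMSO a, b and c.

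**Figure D1:**
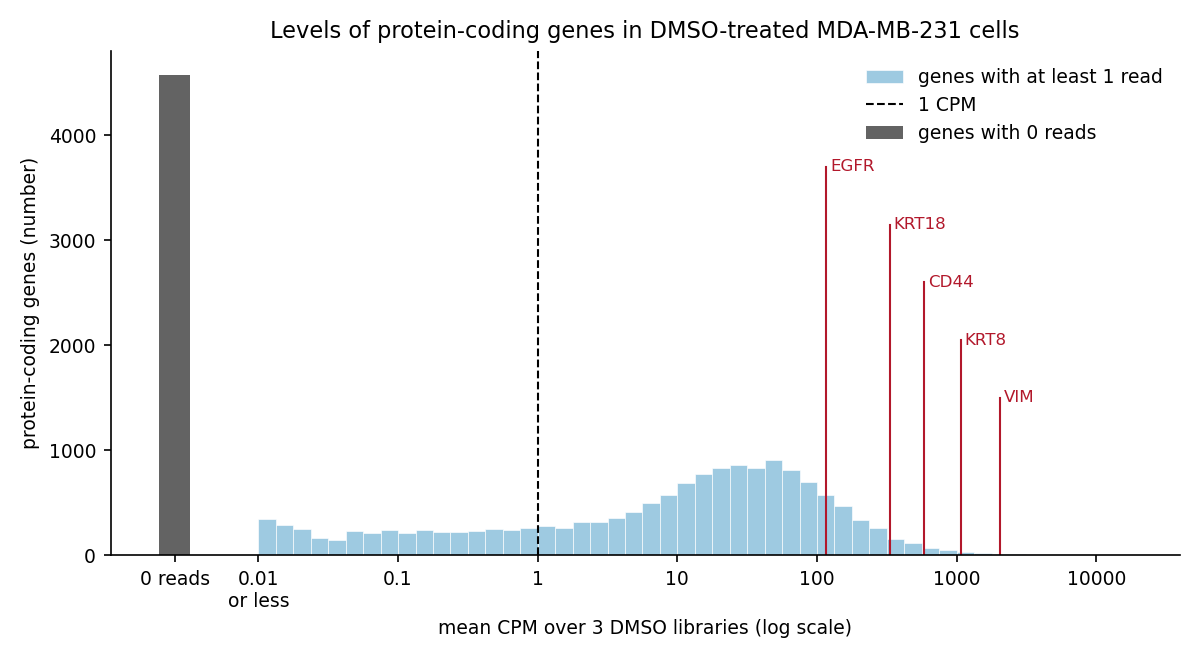
Histogram of the mean level of each protein-coding gene over the 3 DMSO libraries, in CPM on a log axis, with the number of genes on the vertical axis. The grey bar holds the 4576 genes with 0 reads, the dashed line marks 1 CPM, and red lines mark 5 marker genes of the line, all to the right of the main peak.

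The highest levels per kilobase belonged to the mitochondrially encoded subunits of the respiratory chain. They made up 11 of the 20 protein-coding genes with the highest CPM per kb, led by MT-CO2, a subunit of cytochrome c oxidase, at 11857 ± 1484 CPM per kb. Mitochondrially encoded genes took 5.03%, 5.71% and 5.54% of the counts in DMSO a, b and c, lowest in a. Among nuclear genes the order began with S100A6, a small calcium-binding protein, at 4747 ± 777 CPM per kb. It was followed by TMSB10, an actin-binding thymosin, at 3195 ± 575 CPM per kb, and by ACTB, cytoplasmic actin, at 2267 ± 129 CPM per kb. HMGA1, an architectural chromatin protein, reached 2071 ± 52.1 CPM per kb. FTL, the ferritin light chain, stood at 2061 ± 217 CPM per kb and the metallothionein MT2A at 1465 ± 177 CPM per kb. The ranges of HMGA1 and FTL over the 3 libraries overlapped, so their order is not resolved. Of the genes not coding for protein, the nuclear transcripts with most reads were LRRC75A-AS1 at 295 ± 34.5 CPM and NORAD, a long RNA that binds Pumilio proteins, at 241 ± 37.5 CPM. Detection was much rarer among long non-coding RNA genes, of which 571 of 13201 (4.33%) were detected.

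Detected genes and genes with 0 reads differed in the base composition of the DNA before their start. Promoter sequences from RefSeq (GRCh38.p14) matched 15290 of the protein-coding genes, and the 250 bases before the start were read. In vertebrate genomes the dinucleotide CpG is rare except in CpG islands, which lie at the starts of most broadly used genes. A promoter was called CpG-rich at 50% or more G and C and a CpG count of at least 0.6 of that expected from base composition. Of promoters of genes with 0 reads, 25.1% (784 of 3118) were CpG-rich. The share was 47.2% at 0.1 to 1 CPM, 81.9% at 10 to 100 CPM and 85.4% at 100 CPM and above. Over all matched promoters it was 61.4%. The letters TATAAA, the core of the TATA box, on either strand went the other way, in 19.9% of promoters of genes with 0 reads, 4.32% of those at 10 to 100 CPM and 9.33% of all. When genes were placed by CPM per kb, TATAAA was in 4.19% of promoters at 10 to 100 and 11.7% at 100 and above. GGGCGG, the core of the site of SP1, was in 30.3% at 0 reads, 74.7% at 100 CPM and above and 56.9% of all promoters on either strand. These are descriptions across genes, which are not replicates.

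The range is shown by 4 promoters, printed 5′ to 3′ on the strand of the gene with each CpG in capitals. EGFR, the receptor of epidermal growth factor, is expressed here at 116 ± 27.5 CPM with 25 CpGs (chr7:55018767-55019016, plus strand). AXL, a receptor tyrosine kinase, is expressed at 1402 ± 87.3 CPM from a promoter with 4 (chr19:41218973-41219222, plus strand). CDKN2A, a cell-cycle inhibitor, has 0 reads and 24 CpGs at its upstream start (chr9:21995325-21995574, minus strand). KRT5, the basal keratin, has 0 reads and 6 CpGs (chr12:52520395-52520644, minus strand).
EGFR: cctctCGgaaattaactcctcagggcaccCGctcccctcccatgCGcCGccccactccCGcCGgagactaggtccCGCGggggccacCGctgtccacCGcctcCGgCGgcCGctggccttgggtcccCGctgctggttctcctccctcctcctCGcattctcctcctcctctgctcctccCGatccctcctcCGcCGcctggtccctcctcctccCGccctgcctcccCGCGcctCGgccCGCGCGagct
AXL: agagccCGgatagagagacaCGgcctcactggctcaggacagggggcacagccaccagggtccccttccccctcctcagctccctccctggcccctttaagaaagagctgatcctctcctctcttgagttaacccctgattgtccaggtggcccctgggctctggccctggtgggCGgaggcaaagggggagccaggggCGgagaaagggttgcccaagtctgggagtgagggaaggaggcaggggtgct
CDKN2A: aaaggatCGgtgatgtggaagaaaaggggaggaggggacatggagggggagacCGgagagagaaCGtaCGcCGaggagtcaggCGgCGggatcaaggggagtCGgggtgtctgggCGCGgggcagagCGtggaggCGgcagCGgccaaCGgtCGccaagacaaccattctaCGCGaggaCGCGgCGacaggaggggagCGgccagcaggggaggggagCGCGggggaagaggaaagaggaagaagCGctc
KRT5: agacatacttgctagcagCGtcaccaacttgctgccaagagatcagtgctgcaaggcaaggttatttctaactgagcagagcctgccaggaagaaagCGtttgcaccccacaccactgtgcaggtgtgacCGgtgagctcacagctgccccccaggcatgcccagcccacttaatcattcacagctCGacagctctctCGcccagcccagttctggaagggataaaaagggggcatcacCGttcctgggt
The expressed CpG-poor promoter of AXL goes against the trend over all genes. CDKN2A has a CpG-rich promoter and 0 reads, but it lies in a stretch of chromosome 9 where every gene had 0 reads, and RNA counts do not show whether the gene is present in these cells. By count, 7450 of 9338 detected genes with a promoter (79.8%) had a CpG-rich one.

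All 5 markers of the line were detected. VIM, the intermediate filament vimentin of mesenchymal cells, read 1743, 2172 and 2187 CPM in DMSO a, b and c, a mean of 2034 ± 252 CPM. It was lowest in a, and without a, with the scaling refitted to b and c here and below, the mean was 2155 CPM. CD44, the hyaluronan receptor, read 589.9, 595 and 574 CPM, a mean of 586 ± 11.03 CPM, the narrowest spread of the 5. KRT8 and KRT18, the paired keratins of simple epithelium, read 980.3, 1089 and 1133 CPM and 288, 356 and 350.5 CPM, and both were lowest in a. EGFR read 147, 105 and 95.3 CPM, so DMSO a lay well above the others, and without a the mean was 98.9 CPM. Per kilobase the order was VIM at 394 ± 48.9, KRT8 at 155 ± 11.4, KRT18 at 103 ± 11.8, CD44 at 58.6 ± 1.103 and EGFR at 9.24 ± 2.19 CPM per kb. The ranges of neighbours in that order did not overlap. VIM ranked 78, KRT8 249 and EGFR 4225 among the detected protein-coding genes. KRT8 and KRT18 share exon bases on opposite strands, and VIM, CD44 and EGFR overlap antisense genes. Since the strand setting of the counting is not given, some of these reads may belong to the partner gene.

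Mesenchymal genes were detected more often than the background. Of the mesenchymal list 27 of 33 were detected (81.8%, against 57.0% of protein-coding genes), with a median of 125 CPM against 4.55 CPM over all genes. S100A4, a calcium-binding protein linked to metastasis, led at 894 ± 130.2 CPM per kb. TAGLN2, an actin-binding transgelin, stood at 423 ± 29.7 CPM per kb. MSN, which ties actin to the membrane, stood at 191 ± 18.1 CPM per kb. NT5E, the surface nucleotidase CD73, stood at 103 ± 2.97 CPM per kb. CDH11, a mesenchymal cadherin, was the only member with 0 reads. Another 5, of which 4 were matrix genes and 1 an adhesion gene, had reads but were not detected. The lowest detected members, COL1A1 and COL1A2, stood at 0.827 ± 0.0283 and 0.207 ± 0.0708 CPM per kb. Among genes of mesenchymal cells, N-cadherin (CDH2) and the collagen COL3A1 were not detected, with counts given below. The summed list was level across libraries, at 13120.3, 12712 and 12770.3 CPM in a, b and c.

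The epithelial programme was present in part. Of the luminal list 12 of 35 were detected (34.3%, against 57.0% of protein-coding genes), with a median of 0.285 CPM, and 11 members had 0 reads. All 4 simple keratins on it were expressed. KRT7 read 492, 522 and 552 CPM in a, b and c, and KRT19 read 154, 194 and 193 CPM. Both were lowest in a. CLDN4, a tight junction claudin, stood at 143 ± 7.14 CPM, GATA3, the luminal transcription factor, at 27.5 ± 2.099 CPM, and EPCAM, the epithelial adhesion molecule, at 8.96 ± 0.713 CPM. CDH1, which encodes E-cadherin, had 0 reads in every library. So did the progesterone receptor PGR, the receptor KIT, the stem cell marker PROM1, the factors OVOL2 and ELF5, and the secreted TFF1, TFF3, AGR2, SCGB2A2 and CSN2. ESR1, the oestrogen receptor, had 0, 0 and 5 reads in a, b and c, below the detection threshold in every library.

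Of the basal and myoepithelial list 10 of 25 were detected (40%, against 57.0% of protein-coding genes), with a median of 1.05 CPM. CAV1, the coat protein of caveolae, led at 161 ± 5.25 CPM per kb, before SOX9, a transcription factor, at 38.5 ± 4.13 CPM per kb and ITGB4, the integrin of hemidesmosomes, at 30.2 ± 2.85 CPM per kb. The stratified keratins KRT5, KRT6A and KRT6B had 0 reads, as had the surface peptidase MME. KRT14, the partner of KRT5, had 3 reads over the 3 libraries. Of the 37 keratin genes listed, which leave out those of the hair shaft, 7 were detected (18.9%), and 25 had 0 reads. After KRT8, KRT7, KRT18 and KRT19 the order was KRT80 at 49.8 ± 5.76 and KRT10 at 27.5 ± 5.81 CPM per kb. No neighbouring ranges among the 7 detected keratins overlapped.

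Of the EMT transcription factors 9 of 17 were detected, near the background share, and 1 member stood far above the rest. FOSL1, the FRA-1 subunit of AP-1, read 552, 566 and 569.5 CPM in a, b and c, or 298 ± 4.87 CPM per kb. Far lower were RUNX1 at 8.5004 ± 1.06 and SNAI2, which encodes SLUG, at 6.02 ± 0.661 CPM per kb. ZEB1, the zinc finger repressor of CDH1, read 18.01, 16.6 and 11.9 CPM, and SNAI1, which encodes SNAIL, 1.62, 2.11 and 1.899 CPM. SNAI1 thus lay just above the detection threshold in all 3 libraries. TWIST1, TWIST2, GSC and TCF4 had 0 reads in every library.

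**Figure D2:**
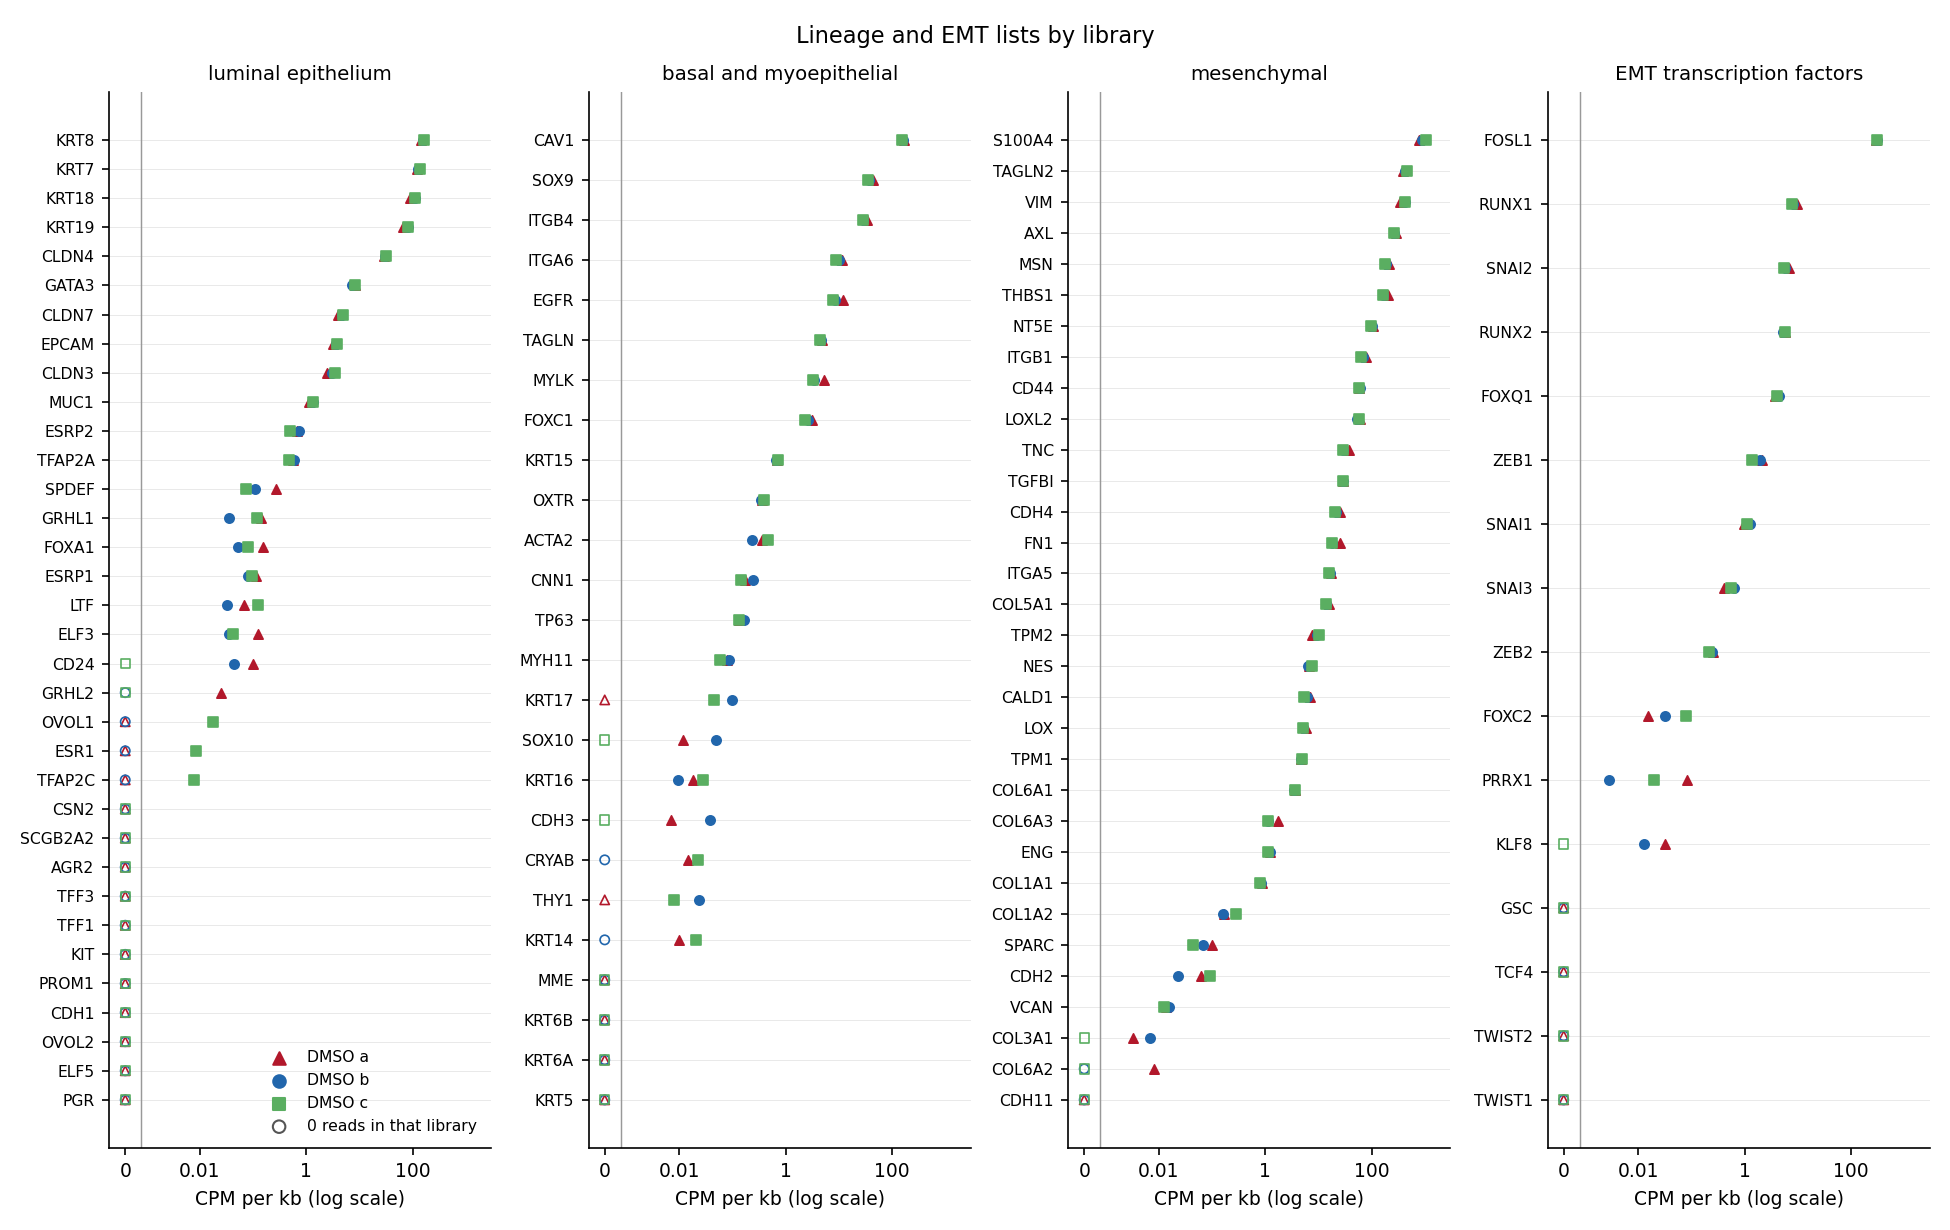
Level per library of the members of 4 lists that are reported here, in CPM per kb on a log axis, with open symbols left of the grey line for libraries with 0 reads. Red triangles are DMSO a, blue circles b and green squares c. Keratins head the luminal list while CDH1 and PGR lie at 0, FOSL1 stands alone at the top of the EMT factors, and 27 of 33 mesenchymal genes were detected.

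Markers of other cell types were mostly absent. The highest share detected was 30%, in the neural list, against 57.0% of all protein-coding genes. No member was detected of the erythroid and platelet (9 genes), adipocyte (5), hepatocyte (6) and muscle (7) lists. The summed level of each of these 4 lists was under 1 CPM in every library. Of 15 leukocyte genes 3 were detected, CSF1R at 3.83 ± 0.452 CPM, CD8A at 1.6003 ± 0.406 CPM and CD14 at 1.36 ± 0.179 CPM. The pan-leukocyte gene PTPRC had 3 reads in all, and CD3D, CD3E, CD4, MS4A1, ITGAM and TYROBP had 0. The leukocyte sum was 7.12, 7.31 and 7.29 CPM in a, b and c. Of 10 fibroblast genes FBLN1, at 11.5 ± 1.11 CPM, and PDGFRB, at 9.84 ± 1.29 CPM, were detected, while PDGFRA, POSTN, FAP, DPT and MFAP5 had 0 reads. Of 10 endothelial genes ROBO4, a guidance receptor of vessels, read 97.2, 95.8 and 93.03 CPM in a, b and c, a level far above the list's median of 0.141 CPM. KDR stood at 3.26 ± 0.772 CPM, PECAM1 had 43 reads, and EMCN and ERG had 0. ROBO4 overlaps 2 antisense entries, and how far their reads enter its count was not tested. MITF was the only detected melanocyte gene, at 4.22 ± 0.106 CPM. GFAP, the astrocyte filament, was detected at 9.46 ± 0.442 CPM, with TUBB3 and MAP2, while NEFL, NEFM and STMN2 had 0 reads. Of the pluripotency list POU5F1 alone was detected, at 2.8003 ± 0.424 CPM, a gene with several near-identical copies whose reads cannot be told apart here. Of 15 cancer-testis genes, which are silent outside the germ line but often on in tumours, only SPANXB1 was detected, at 1.88 ± 0.803 CPM, and PRAME, MAGEA1 and MAGEA4 were among 11 with 0 reads. At 5 CPM in each library the leukocyte, melanocyte, pluripotency and cancer-testis lists had 0 detected members. The endothelial and neural lists had 1 each and the fibroblast list 2.

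**Figure D3:**
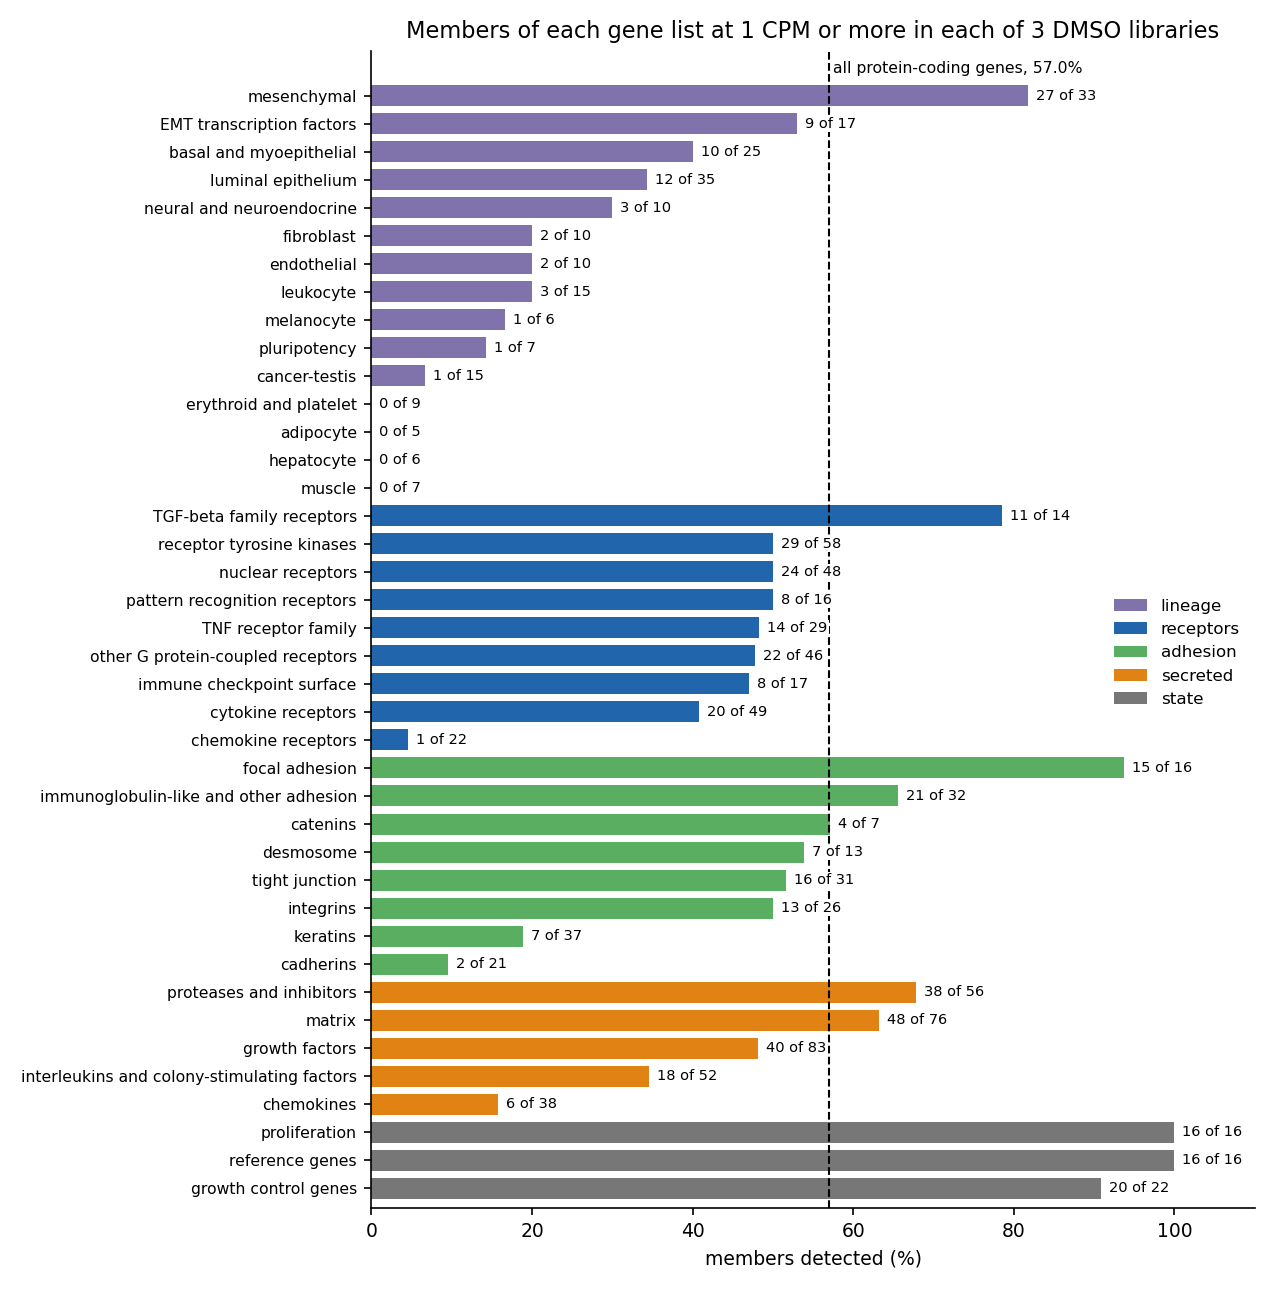
Share of the members of each list at 1 CPM or more in each of the 3 DMSO libraries, in percent, with counts beside the bars, colours for the area of biology and a dashed line at the share over all protein-coding genes. Proliferation, reference, growth control, focal adhesion, mesenchymal and TGF-beta receptor genes lie right of the line. Chemokine receptors, cadherins, chemokines and keratins lie far left of it.

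Receptor tyrosine kinases carry growth factor signals across the membrane, and 29 of 58 were detected (50%, near the 57.0% of all protein-coding genes), with a median of 1.38 CPM. AXL, the receptor of GAS6, stood above all others. It read 1499, 1376 and 1330.2 CPM in a, b and c, and without a the mean was 1338 CPM. EPHA2, a receptor of ephrin-A ligands, was next and read 504, 469.9 and 492 CPM. Per kilobase AXL reached 272 ± 16.9 and EPHA2 118 ± 4.16 CPM per kb, with no overlap. Below them came EPHB4 at 16.8 ± 0.857, FGFR1 at 12.4 ± 0.7797, PTK7 at 10.96 ± 0.191, ERBB2 at 10.5 ± 0.517, DDR1 at 9.696 ± 0.519 and EGFR at 9.24 ± 2.19 CPM per kb. The order within that group is not resolved throughout, since 16 of 28 neighbouring pairs of the whole list overlapped in range. ERBB2, which encodes HER2, read 114, 104 and 109 CPM. MET, the receptor of hepatocyte growth factor, read 64.05, 52.5 and 54.4 CPM, highest in a. ERBB4, PDGFRA, KIT, FLT1, FLT3, FLT4, FGFR2, EPHA3, EPHA8, ROR2, RET, ROS1 and INSRR had 0 reads.

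Nuclear receptors bind steroids, retinoids and lipids inside the cell and act on DNA, and 24 of 48 were detected (50%), with a median of 2.09 CPM. Oxysterol, retinoid and orphan receptors led, with NR1H2, the liver X receptor beta, at 43.05 ± 2.46, NR2F6 at 41.9 ± 5.48, RXRB at 40.3 ± 1.86, NR2F2, the COUP-TF II factor of mesenchyme and veins, at 32.3 ± 2.49 and ESRRA at 30.9 ± 2.71 CPM per kb. The fatty acid sensors PPARD and PPARG stood at 30.7 ± 1.37 and 12.2 ± 0.119 CPM per kb. PPARG read 55.4, 54.6 and 55.6 CPM, with almost no spread. Of 6 steroid receptors 2 were detected. NR3C1, the glucocorticoid receptor, read 47.7, 36.99 and 32.8 CPM, and its highest value was in a. PGR, RXRG, NR1I2, NR1H4, HNF4A, NR2E1, NR0B1 and NR0B2 had 0 reads.

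The receptors of TGF-beta family ligands, which drive EMT in many epithelia, were detected for 11 of 14 genes (78.6%, against 57.0% of protein-coding genes). TGFBR2, the ligand-binding type II receptor, read 221, 188 and 167 CPM in a, b and c. Its partner TGFBR1 stood at 3.09 ± 0.299 CPM per kb against 40.8 ± 5.83 for TGFBR2, and ACVR1 and ACVR1B at 4.699 ± 0.303 and 3.18 ± 0.736. AMHR2 had 0 reads. At 5 CPM in each library the count of the list was 7 of 14, a share near that of all protein-coding genes at that threshold. Of the TNF receptor family 14 of 29 were detected (48.3%). TNFRSF12A, the receptor of TWEAK, read 352, 395 and 438 CPM and at 214 ± 23.4 CPM per kb stood clear of TNFRSF1A at 43.7 ± 0.737, TNFRSF21 at 40.3 ± 1.83 and TNFRSF10B, a receptor of TRAIL, at 34.3 ± 2.69. TNFRSF4, TNFRSF13B and TNFRSF17, receptors of lymphocytes, and EDA2R had 0 reads.

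Cytokine receptors were detected for 20 of 49 genes (40.8%), with a median of 0.364 CPM. The highest per kilobase were IFNGR2, of the interferon-gamma receptor, at 15.8 ± 0.232, IL13RA1 at 14.05 ± 0.719, IL17RC at 13.6 ± 1.103 and OSMR, of the oncostatin M receptor, at 12.1 ± 2.46 CPM per kb. By length of the longest transcript IL17RC came first, and 11 of 19 neighbouring pairs overlapped, so the order is not fixed. IL17RA, IL17RB, IL17RC and IL17RD, chains of IL17 receptors, were each detected. The lymphocyte chains IL2RB and IL2RG, and CSF2RB, CSF3R and IL18R1, had 0 reads. Chemokine receptors, which guide leukocytes and metastasising cells, were the receptor class least often detected, at 1 of 22 (4.55%). CCR1 alone was detected and read 7.28, 9.16 and 8.08 CPM. CXCR4, CXCR1, CXCR2, CCR7 and ACKR3 were among 14 with 0 reads.

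Of the other G protein-coupled receptors 22 of 46 were detected (47.8%). At 5 CPM in each library 14 were detected, a share below that of all protein-coding genes at that threshold. The adhesion receptors ADGRE5, which encodes CD97, and ADGRG1 led at 80.6 ± 1.27 and 32.9 ± 1.96 CPM per kb. ADORA2B, an adenosine receptor, stood at 26.8 ± 1.65, and F2RL1 and F2RL3, receptors cut by proteases, at 15.5 ± 0.659 and 11.8 ± 0.733 CPM per kb. AGTR1, TACR1, BDKRB1 and NMUR1 had 0 reads. Of the pattern recognition receptors 8 of 16 were detected (50%). CGAS and TMEM173, the DNA sensor cGAS and its effector STING, stood at 10.4 ± 0.0259 and 5.72 ± 0.0734 CPM per kb. AGER, which encodes RAGE, read 6.11, 7.47 and 6.62 CPM in a, b and c, or 3.24 ± 0.332 CPM per kb. The AGER level rests on 276, 323 and 286 reads. TLR7 had 0 reads. Of the surface genes of immune checkpoints 8 of 17 were detected (47.1%), led by the nectin family members PVR and NECTIN2 at 65.5 ± 2.94 and 62.5 ± 4.22 CPM per kb, whose ranges overlapped. CD276, which encodes B7-H3, stood at 13.6 ± 0.788. CD274, which encodes PD-L1, read 16.9, 17.7 and 16.9 CPM. CD80, CD86 and VTCN1 had 0 reads.

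Integrins bind cells to matrix, and 13 of 26 were detected (50%). ITGA3, of the laminin receptor, read 1276, 1142 and 1151 CPM in a, b and c and led at 121 ± 7.64 CPM per kb. ITGB1, the common beta chain, read 479, 421 and 375 CPM and stood at 70.7 ± 8.74 CPM per kb. ITGB5 stood at 37.3 ± 1.34, ITGB4 at 30.2 ± 2.85, ITGA5, of the fibronectin receptor, at 16.5 ± 0.496 and ITGA6 at 9.97 ± 1.28 CPM per kb. The leukocyte chains ITGAM, ITGAX, ITGAD and ITGA4, and ITGA8, had 0 reads. Both ITGA3 and ITGB1 were highest in a. The proteins that tie integrins to actin were detected for 15 of 16 genes (93.8%, against 57.0% of protein-coding genes), with a median of 217 CPM. FLNA, filamin A, read 5184, 3948 and 3847 CPM, and ACTN4, an alpha-actinin, 1988, 1854 and 1895 CPM. FLNA was again highest in a, and its 10585 exon bases put it in the quintile of the longest genes.

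At junctions between cells, 4 of 7 catenins were detected, near the background share, and CTNNA2 and CTNNA3 had 0 reads. CTNNA1 and CTNNB1, alpha- and beta-catenin, read 647, 649.5 and 668 CPM and 590.3, 577 and 577 CPM in a, b and c. Of classical cadherins, the membrane partners of catenins, 2 of 21 were detected (9.52%) and 12 had 0 reads. CDH4, which encodes R-cadherin, read 186, 154 and 152 CPM, and CDH24 stood at 31.02 ± 1.82 CPM. CDH2, which encodes N-cadherin, had 39 reads over the 3 libraries and CDH3, P-cadherin, 12. JUP, which encodes plakoglobin, stood at 13.7 ± 1.06 CPM. Of the desmosome genes 7 of 13 were detected (53.8%, against 57.0% of protein-coding genes). DSG2 stood at 6.904 ± 1.11 and PKP3 at 6.52 ± 0.133 CPM per kb, while DSG1, DSG3, DSG4, DSC1, DSC3 and PKP1 had 0 reads. Tight junction genes were detected for 16 of 31 genes (51.6%). At 5 CPM in each library 9 were detected, a share below that of all protein-coding genes at that threshold. CLDN4 led at 30.3 ± 1.52, before CLDN12 at 6.32 ± 0.492 and CLDN15 at 6.16 ± 0.232 CPM per kb. CLDN8, CLDN10 and CLDN19 had 0 reads. Of other adhesion genes 21 of 32 were detected (65.6%). The tetraspanins CD63, CD151 and CD82 stood at 187 ± 28.7, 141 ± 16.5 and 77.1 ± 5.96, and the heparan sulphate carrier SDC4 at 91.8 ± 3.72 CPM per kb. VCAM1, NECTIN4, CEACAM5 and CEACAM6 had 0 reads.

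Among secreted growth factors 40 of 83 were detected (48.2%), with a median of 0.888 CPM. CYR61 and CTGF, also named CCN1 and CCN2, matricellular proteins and known targets of YAP and TAZ, were highest. CYR61 read 2265, 2346 and 2345 CPM in a, b and c, or 945 ± 18.9 CPM per kb. CTGF read 719, 759 and 736 CPM, or 315 ± 8.58 CPM per kb. GRN, progranulin, stood at 119 ± 12.2, BMP4, a bone morphogenetic protein, at 92.3 ± 5.03 and GAS6, the AXL ligand, at 87.8 ± 9.21 CPM per kb. TGFB1 stood at 47.1 ± 2.44 and HBEGF, an EGFR ligand, at 42.9 ± 2.13. VEGFB and VEGFC, factors of blood and lymph vessels, stood at 42.6 ± 7.18 and 17.97 ± 1.61 CPM per kb. Of 21 fibroblast growth factors only FGF1 and FGF5 were detected, at 7.56 ± 0.592 CPM and 4.48 ± 0.676 CPM. HGF, IGF1, IGF2, INHBA, FGF9, FGF10, BMP7 and NTF3 were among 15 members with 0 reads.

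Of interleukins, colony-stimulating factors and related cytokines 18 of 52 were detected (34.6%). CSF2, which encodes GM-CSF, read 54.1, 58.4 and 70.5 CPM in a, b and c, and CSF1, which encodes M-CSF, 245, 224 and 232 CPM. LIF, a cytokine acting through gp130, read 95.4, 89.1 and 91.2 CPM. IL11 and IL6, of the same family, stood at 12.5 ± 1.298 and 11.5 ± 0.8701 CPM per kb, against 77.5 ± 10.8 for CSF2 and 43.2 ± 1.91 for CSF1. The T cell cytokines IL2, IL3, IL4, IL5, IL9, IL17A, IL21 and IL22 had 0 reads, as had IL33, TSLP and IFNB1. Chemokines were detected for 6 of 38 genes (15.8%). CXCL8, the neutrophil attractant interleukin-8, read 85.1, 83.6 and 93.4 CPM. CXCL1 and CXCL2, which share its receptor, stood at 23.3 ± 2.55 and 19.8 ± 1.93 CPM per kb against 38.4 ± 2.32 for CXCL8. CXCL12, CXCL9, CCL19 and CCL21 were among 20 with 0 reads, and CCL2 and CCL5 had 6 and 14 reads.

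Matrix genes were detected for 48 of 76 members (63.2%), with a median of 12.03 CPM. LGALS1, the lectin galectin-1, led and read 1146, 1319 and 1461 CPM in a, b and c, lowest in a. THBS1, thrombospondin-1, stood at 175 ± 21.2, LGALS3BP at 114 ± 3.62, and LAMB3, of the laminin of epithelial basement membrane, at 109 ± 0.963 CPM per kb. COL13A1, a transmembrane collagen, was the highest of 33 collagens at 68.5 ± 2.73, and 19 collagens were detected. The fibroblast collagen COL1A1 stood at 8.12 ± 0.278 CPM and COL3A1 had 3 reads. FN1, fibronectin, read 439, 308 and 318 CPM, so a was highest, and without a the mean was 309 CPM. BGN, NID1, COL2A1, COL5A3, COL9A1, COL10A1, COL14A1 and LAMC3 had 0 reads.

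Proteases and their inhibitors were detected for 38 of 56 genes (67.9%). PLAU, urokinase, which turns plasminogen into plasmin at the cell surface, read 1436, 1549 and 1674 CPM in a, b and c, or 526 ± 40.4 CPM per kb. MMP14, the membrane-bound collagenase of invading cells, read 2072, 2121 and 2120.2 CPM, or 471 ± 6.31 CPM per kb. CTSD and CTSZ, lysosomal cathepsins, stood at 345 ± 45.9 and 229 ± 24.8 CPM per kb. TIMP1, an inhibitor of metalloproteinases, stood at 84.3 ± 11.3, and LOXL2, which crosslinks collagen, at 56.6 ± 3.41. Of 17 metalloproteinases 9 were detected. Next to MMP14 they were low, with MMP1 at 1.35 ± 0.154 CPM, and MMP2 and MMP9 with 28 and 21 reads over the 3 libraries. PLG, plasminogen itself, had 0 reads, as had TMPRSS2, HPN, KLK5, KLK6, KLK10, MMP10, MMP12 and MMP28.

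When known ligands were set beside their receptors, 25 of 57 pairs had both members detected. In 17 pairs only the ligand was detected, in 8 only the receptor, and in 7 neither. Of all protein-coding genes, taken singly, 57.0% were detected. How many pairs that share alone would give was not computed, so these counts describe the chosen pairs only. The pairs share members, with 34 receptors and 54 ligands in all, so they are not independent. GAS6 and AXL were the pair with the highest receptor level, at 87.8 ± 9.21 and 272 ± 16.9 CPM per kb. Of 6 EGFR ligands HBEGF, TGFA, AREG and EREG were the highest, at 42.9 ± 2.13, 14.7 ± 0.933, 9.96 ± 0.575 and 3.17 ± 0.379, while EGF itself stood at 0.2398 ± 0.0304 CPM per kb. TGFB1 at 47.1 ± 2.44 faced TGFBR2 at 40.8 ± 5.83. CXCL8, CXCL1, CXCL2 and CXCL3 were detected with 0 reads of their receptor CXCR2. IL6 was detected with 7 reads of IL6R, while IL6ST, its signalling chain gp130, stood at 34.1 ± 5.96 CPM. CSF2 was detected with 0 reads of CSF2RB, the signalling chain, and CSF2RA at 3.105 ± 0.853 CPM. MET was detected with 0 reads of HGF, and IGF1R, at 46.6 ± 11.3 CPM, with 0 reads of IGF1 and IGF2. RNA levels do not show whether serum in the medium supplies a ligand, nor the amount of any protein.

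**Figure D4:**
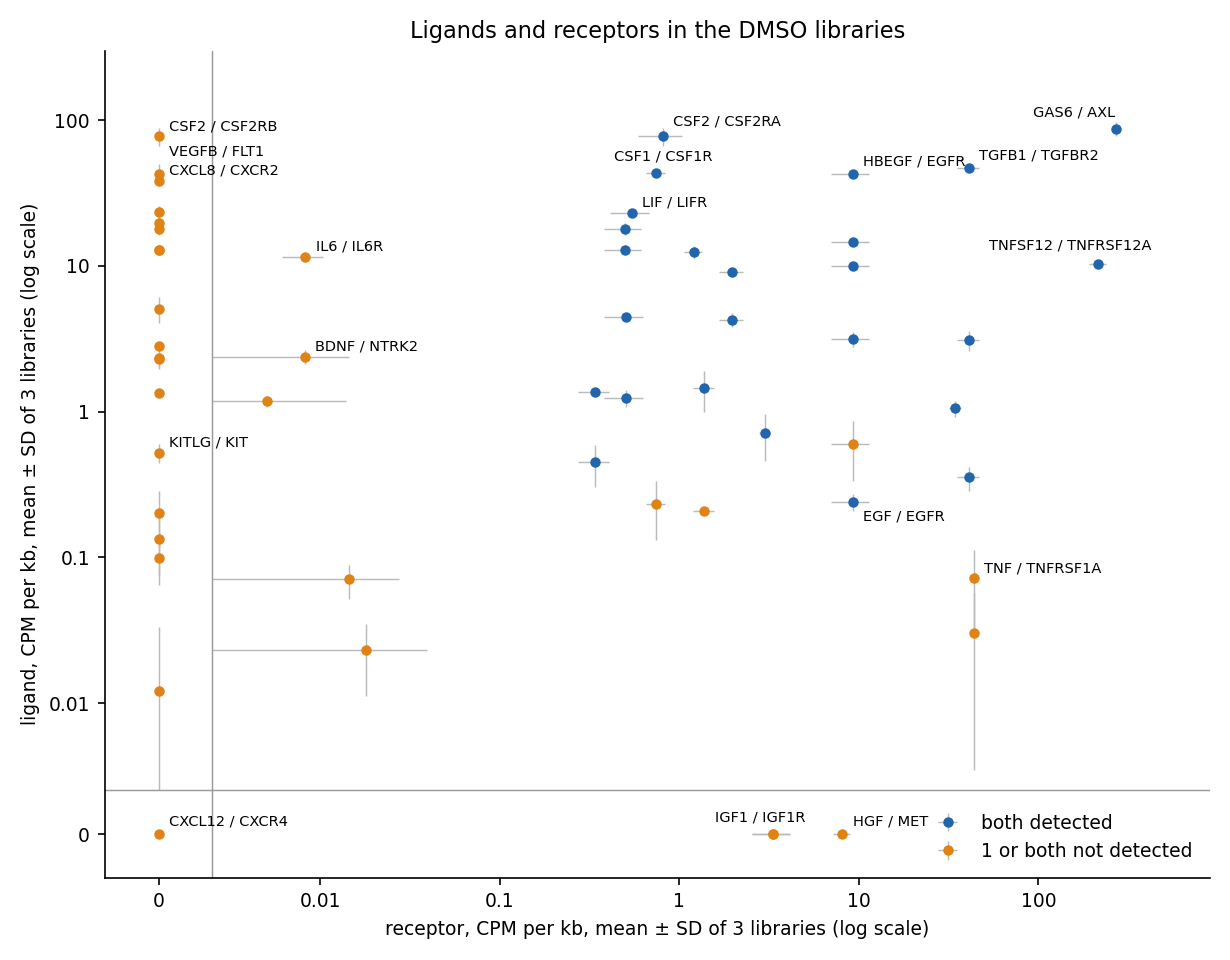
Level of the ligand against level of the receptor for 57 pairs, in CPM per kb on log axes, mean ± SD of 3 libraries, with genes at 0 reads left of or below the grey lines, where error bars are cut. Blue pairs have both members detected and orange pairs do not. GAS6 with AXL lies at the upper right, CXCL8 with CXCR2 and CSF2 with CSF2RB at the left edge, and HGF with MET at the bottom.

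In several gene families most members had 0 reads, against 23.0% of all protein-coding genes. Of 381 olfactory receptor genes 355 had 0 reads and none was detected. Of 94 keratin-associated protein genes, made in hair, 88 had 0 reads, and KRTAP2-3 alone was detected, at 3.996 ± 0.438 CPM. No taste receptor (24 genes), beta-defensin (39), kallikrein (15) or gene of the protocadherin alpha cluster (15) was detected. Of the neighbouring beta cluster 6 of 16 genes (37.5%) and of the gamma cluster 6 of 22 (27.3%) were detected. Both shares are below the 57.0% of all protein-coding genes. PCDHGB2 led at 17.2 ± 4.95 CPM. How reads that match several genes of a cluster were counted is not given. Zinc finger genes named ZNF were detected in 74.7% of 514 cases, against 57.0% of all protein-coding genes. Replication-dependent histone genes, whose messages mostly lack a poly(A) tail, were detected for 6 of 70 (8.57%), in libraries made from polyadenylated RNA. Whether the type of library or the counting of close copies lowered this number was not tested.

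HOX genes give cells their position along the body axis. Of 39, 2 were detected (5.13%, against 57.0% of protein-coding genes), both in the HOXB cluster. HOXB9 read 10.2, 9.81 and 11.5 CPM in a, b and c, and HOXB3 8.69, 6.52 and 5.93 CPM. The HOXB cluster had reads for 7 of 10 genes, the HOXA cluster for 1 of 11, the HOXC cluster for 2 of 9 and the HOXD cluster for 5 of 9. Summed reads were 2620 in HOXB against 94, 11 and 234 in HOXA, HOXC and HOXD. The HOXA cluster held a run of 11 neighbouring protein-coding genes with 0 reads on chromosome 7, and 5 of their 8 matched promoters were CpG-rich.

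Across the genome there were 40 runs of 10 or more neighbouring protein-coding genes with 0 reads, holding 765 of the 4576 genes with 0 reads. The longest, 56 genes on chromosome 11 from OR4B1 to OR5M8, was made up mostly of olfactory receptors, and the next, 46 genes on chromosome 1 from LCE5A to S100A7, held genes of the cornified skin layer. Of 37 runs with a matched promoter, 25 had no CpG-rich one. On the short arm of chromosome 9 a run of 25 genes from HACD4 to IZUMO3 (positions 20999515 to 24545946, GRCh38, GENCODE 29) had 0 reads in all 3 libraries. It holds 16 type I interferon genes and 9 others. Among these are CDKN2A and CDKN2B, inhibitors of the cyclin D kinases, MTAP, an enzyme of methionine salvage in most tissues, and KLHL9, an adaptor of a ubiquitin ligase. With non-coding genes included, all 66 annotated genes in this span had 0 reads. CpG-rich promoters made up 6 of the 21 matched in it, the printed CDKN2A promoter among them. The genes next to the run on either side were detected, FOCAD only just, but not every gene further out was. FOCAD, the neighbour before the run, read 1.44, 1.02 and 2.01 CPM in a, b and c, and MLLT3 stood at 6.18 ± 1.37 CPM. On the other side TUSC1 read 24.8, 27.9 and 32.7 CPM and CAAP1 30.6, 26.7 and 28.5 CPM. Further out, ACER2 at 0.759 ± 0.418 CPM was not detected, and SLC24A2 and LRRC19 had 4 and 2 reads. Counts of RNA alone do not tell a stretch missing from the genome from one that is not transcribed, and this was not tested.

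Genes of growth control were detected with few exceptions. Of this list of signalling and cell-cycle genes 20 of 22 were detected (90.9%), and the 2 with 0 reads were CDKN2A and CDKN2B. CCND1, cyclin D1, read 778, 719 and 709 CPM and stood at 152 ± 7.66 CPM per kb. HRAS stood at 74.2 ± 14.7, and CDK4, the kinase partner of cyclin D1, at 57.1 ± 1.99 CPM per kb. All 16 proliferation genes were detected, with a median of 189 CPM, led by PCNA at 188 ± 12.1, MCM7 at 168 ± 8.03 and MCM3 at 147 ± 5.45, parts of the replication machinery, and CCNB1, the mitotic cyclin, at 112 ± 6.74 CPM per kb. All 16 reference genes were detected as well.

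The spread between the libraries was larger than counting alone gives, and it was smaller without DMSO a. Of 9828 protein-coding genes at a mean of 5 CPM or more, 6067 (61.7%) had an SD under 10% of the mean, and 179 had one over 25%. Counting alone would give a median of 2.47%. The biological coefficient of variation, edgeR's common estimate beyond counting, was 11.6% over the 3 libraries. It was 7.51% without a, 14.3% without b and 11.4% without c. The 10 most variable genes were all highest in a, and had a median of 13210.5 exon bases against 5260 over these genes. RAPH1, which encodes the actin regulator lamellipodin, read 19.2, 8.28 and 6.81 CPM in a, b and c. KMT2D, a histone methyltransferase, read 172, 80.99 and 83.004 CPM, and HSPG2, the matrix proteoglycan perlecan, 96.1, 45.8 and 45.4 CPM. DMSO b and c lay close together in all 3 genes. SRCAP, FLG, MICAL3, NFATC3, NFAT5, NBPF1 and NBPF26 made up the rest. Lowest in a relative to b and c were HES4, TMEM238, GPS2, MRPL12 and LENG9, and MRPL12, a mitochondrial ribosomal protein, read 22.04, 33.8 and 41.3 CPM.

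Some gene classes differed between the libraries as a whole. Of 75 cytoplasmic ribosomal protein genes at 5 CPM or more, 75 were lower in a than in the mean of b and c, with a median log2 ratio of -0.31. Their median was 3002 exon bases, and the quintile of genes with the fewest exon bases had a median log2 ratio of -0.19. How far they depart from the trend with length was not tested. Ribosomal protein genes took 6.14%, 7.05% and 7.59% of the counts in a, b and c. Over the 9828 genes the log2 ratio of DMSO a to c had r = 0.584 with log2 exon bases, that of a to b r = 0.5003 and that of b to c r = 0.324. These values are across genes, which are not replicates. The log2 levels of the libraries were correlated at 0.992 for a and b, 0.988 for a and c and 0.996 for b and c. Whether RNA quality, library preparation or the cells differed in DMSO a was not tested.

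**Figure D5:**
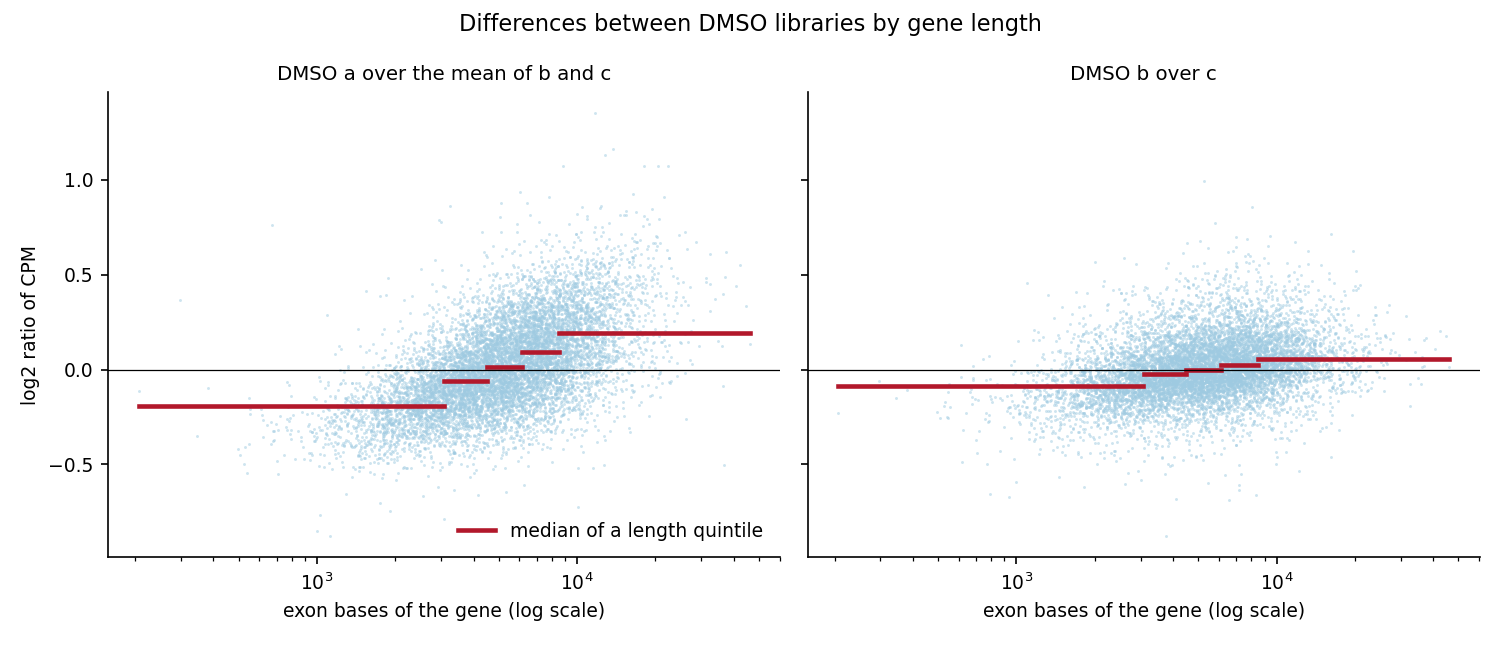
Log2 ratio of CPM of DMSO a to the mean of b and c (left) and of b to c (right) against the exon bases of the gene on a log axis, for 9828 protein-coding genes, with red bars at the median of each length quintile. The bars climb from -0.19 to 0.19 on the left and from -0.09 to 0.05 on the right.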

How the data were processed

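Cells of the line MDA-MB-231 were treated for 72 h and their RNA was purified with a column kit, per the labels' protocols, and the labels name the polyadenylated RNA as the molecule sequenced. The authors deposited raw counts per gene, with a column for each library. The tools listed, per the submitters' processing notes, are the aligner STAR 2.6.1d, the counter featureCounts 1.5.0-p3 and limma, with the build GRCh38. How strands and reads with several matches were counted, and with which annotation, is not given in the sources used here, so overlapping genes and close copies may share or lose reads.

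The 3 DMSO libraries were grouped by the treatment label and described alone. With 1 condition there is no test. Counts were scaled by TMM (edgeR 4.0.16, R 4.3.3) over these libraries. Other values were computed with Python 3.11.15, and figures with matplotlib 3.10.9. Of 58735 entries, 1741 shared a name, of which the entry with most counts was kept, and 2 names turned into dates held 0 counts. Gene type, exon bases and coordinates came from GENCODE 29, matched by name. Promoters came from RefSeq, at the start nearest the 5′ end of the GENCODE gene. No pair of libraries agreed within sampling noise (chi-square per degree of freedom 42.1, 75.2 and 13.7), so none was counted as a copy. The estimate of biological variation was tested on simulated data, where it came within 0.692% of the set values. In each simulation all genes had the same spread, with no trend on gene length and no library set apart. It therefore does not cover these features of the real libraries.

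The 40 lists (983 genes), the pairs and the families were chosen with earlier results of these data known. NMU and TSLP, both ligands, were taken off receptor lists after their values were seen. Named by rule were 5 markers, the 20 highest genes per kb, the 4 highest detected members of each list (8 for lists over 25 genes), members with 0 reads, the 10 most variable genes, those furthest from the others in DMSO a, and the most abundant non-coding genes. Some genes that these rules name are not reported here by name but stay in the counts of lists. All other genes named, such as ESR1, SNAI1, ZEB1, MET, NR3C1, CDH2, FN1, COL1A1, MMP1, CD274, IL6R, the HOX and protocadherin genes and the genes around CDKN2A, were chosen after their values were seen. Alternatives were other scalings, other thresholds, length of the longest transcript and leaving out each library.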

Additional observations from a re-analysis of the deposited data

How the results depend on the processing

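The count of detected protein-coding genes was 11353 with library totals and 11367 with RLE size factors, and it lay between 9621 at 5 CPM and 12489 at 10 reads in each library. It ran from 11413 to 11459 with a library left out. Protein-coding genes at 3 reads or fewer numbered 5460, and those with 0 reads 4831 to 4980 with a library left out. The median spread was 4.597% without DMSO a and up to 9.39% with another library left out. With the trend on exon length removed, an alternative chosen after seeing the data, it was 6.85%. The mean of CD44 ran from 578 to 600.1 CPM with a library left out, more than its SD from the reported mean at the upper end. The 100 most abundant genes held 20.5% of counts with mitochondrial genes left out. The share of CpG-rich promoters among the highest genes was 83.4% with bins by CPM per kb. Of 170 levels of 34 named genes under other scalings or with a library left out, 167 stayed within 1 SD. Leaving out 1 of 3 libraries can move a mean by more than its SD only through the refitted scaling. For those settings the count therefore says little about how far a level rests on a single library. Of 120 list counts with a library left out, 119 stayed within 1.5 times the reported count, and the other was the melanocyte list, with 2 genes without DMSO a. In 28 of 32 lists the highest gene was the same by the longest transcript. No paired analysis was possible because only the DMSO libraries are described and no groups are compared. Depth limits what is said of genes under the detection threshold, where a few reads decide the level.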
